A study of Rattus norvegicus with 6 samples.

Results

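Interleukins and their receptors were followed in whole rat lung as 1 family of secreted signals and of the surface proteins that read them. The members were all genes of the deposited table whose symbol begins with Il and a digit, Il6st left out, with 1 entry per symbol. This gave 78 of the 23802 genes in the table: 36 ligands, 39 receptor or binding-protein genes and 3 others. PolyA RNA was sequenced from 3 MCT lungs and 3 control lungs of male wild-type Sprague-Dawley rats that weighed 200 to 250 g, and the labels give no age. MCT rats had received 1 injection of 60 mg/kg monocrotaline, an alkaloid that injures lung vessels and serves as a rat model of pulmonary arterial hypertension, and their lungs were taken after 4 weeks. Control rats received saline, given subcutaneously. The labels name both an intraperitoneal and a subcutaneous route for MCT, so the route may have differed between the groups. The design asks how gene expression differs in the lungs of this model, and whole-lung RNA mixes all cell types of the organ.

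Interleukins act mostly at short range. The IL-1 family signals through receptors that each pair with an accessory chain and is held back by decoys and a soluble antagonist. IL-2, IL-4, IL-7, IL-9, IL-15 and IL-21 use the common gamma chain, and the IL-6, IL-12 and IL-10 families also act through paired chains linked to JAK kinases and STAT factors. In the lung, IL-33 is known as an alarm signal held in the nuclei of structural cells, and its receptor ST2, the product of Il1rl1, is carried by mast cells, group 2 innate lymphoid cells and regulatory T cells.

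Summed counts ranged from 13525912 to 17916134 per library, and the members took between 0.15% and 0.164% of them. Lung identity genes were abundant in every library, and of 8 tested only Nkx2-1, a lung epithelial transcription factor, passed the test (1 lower, 0 higher), with 228 ± 42.8 CPM in MCT lungs and 381 ± 19.9 CPM in control lungs (SD, n = 3 each), a call lost without control replicate 2 or 3. No 2 libraries of a group were alike within counting noise (chi-square over its degrees of freedom from 23.2 to 52.6), so all 6 were kept apart. The labels do not say that each sample is a separate animal, so the p-values reflect only how these 6 samples vary, and part of that may be technical. MCT replicate 1 had the highest neutrophil marker sum, 603 CPM, against 76.2 and 56.0 CPM in the other MCT lungs and 36.8 to 66.8 CPM in control lungs. The log2 fold changes of Il1b, Il1r2, Il18r1, Il23a, Il6, Il24, Il36b and Il17b are given with and without that library.

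Levels between genes were compared per length, as FPKM. Among ligands the highest mean level over the 6 lungs, 102 FPKM, was that of Il33, with 63.9 ± 3.24 FPKM in MCT lungs and 141 ± 22.6 FPKM in control lungs (SD, n = 3 each). Next came Il18, with 67.5 ± 19.5 FPKM in MCT lungs and 39.2 ± 1.0 FPKM in control lungs, then Il1b and Il1rn, whose means over all 6 lungs of 21.0 and 19.3 FPKM lay within each other's spread. Il33 made up 22.5%, 36.1% and 29.5% of the summed ligand FPKM in MCT replicates 1 to 3, against 58.8%, 54.7% and 63.3% in control replicates 1 to 3. In MCT lungs it was level with Il18 within the spread, and in control lungs it was more than all other ligands together. Among receptors the highest mean levels over the 6 lungs were those of Il4r, 71.6 FPKM, Il17ra, 55.1 FPKM, Il2rg, 40.6 FPKM, and Il11ra1, 39.8 FPKM. Il2rg and Il11ra1, neighbours in that order, did not differ beyond their spread.

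**Figure D1:**
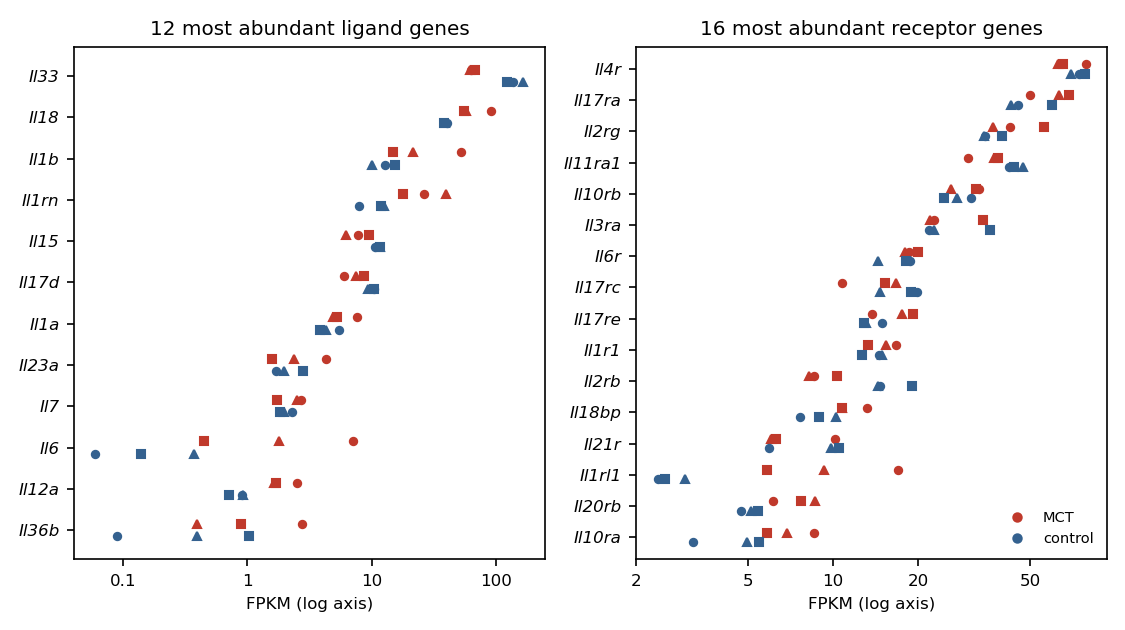
FPKM on a log axis of the 12 most abundant ligand genes (left panel) and the 16 most abundant receptor genes (right panel), 1 point per library, MCT in red above control in blue, with circle, square and triangle for replicates 1, 2 and 3. The groups part for Il33, Il18, Il1rn and Il12a among the ligands and for Il1rl1 and Il2rb among the receptors, all of which passed the test. They also part for Il15, Il17d, Il11ra1, Il18bp, Il20rb and Il10ra, which did not pass, and for Il6, which was below the filter.

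Changes were tested on counts with edgeR's quasi-likelihood test with Benjamini-Hochberg adjustment over all 15250 genes tested. Each edgeR adjusted p below comes from this test unless another setting is named with it. Values without a filter or with a library left out were adjusted over the genes tested in that run. A filter on low counts left 46 of the 78 members to test: 11 of 36 ligands, 32 of 39 receptors and all 3 others. Of these 46, 9 passed an adjusted p of 0.05, which is 19.6%, against 13.1% of all genes tested. In MCT lungs 4 were higher, or 8.7% against 8.01% of all genes, and 5 were lower, or 10.9% against 5.11%. The share of members that rose is near that of all genes. The median log2 fold change, MCT over control, was 0.14 over the tested members and -0.01 over all genes tested. The groups did not overlap in CPM for 21 of the 46, 10 higher and 11 lower in MCT lungs, which is 45.7% against 35.4% of all genes (18.4% higher and 17% lower). Among ligands Il1rn, Il18 and Il12a rose and Il33 fell. Among receptors Il1rl1 rose, and Il2rb, Il12rb2, Il17rd and Il22ra1 fell. Il22ra1 passed the filter on low counts only through the control lungs, where it was high, so its call is not independent of the filter.

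**Figure D2:**
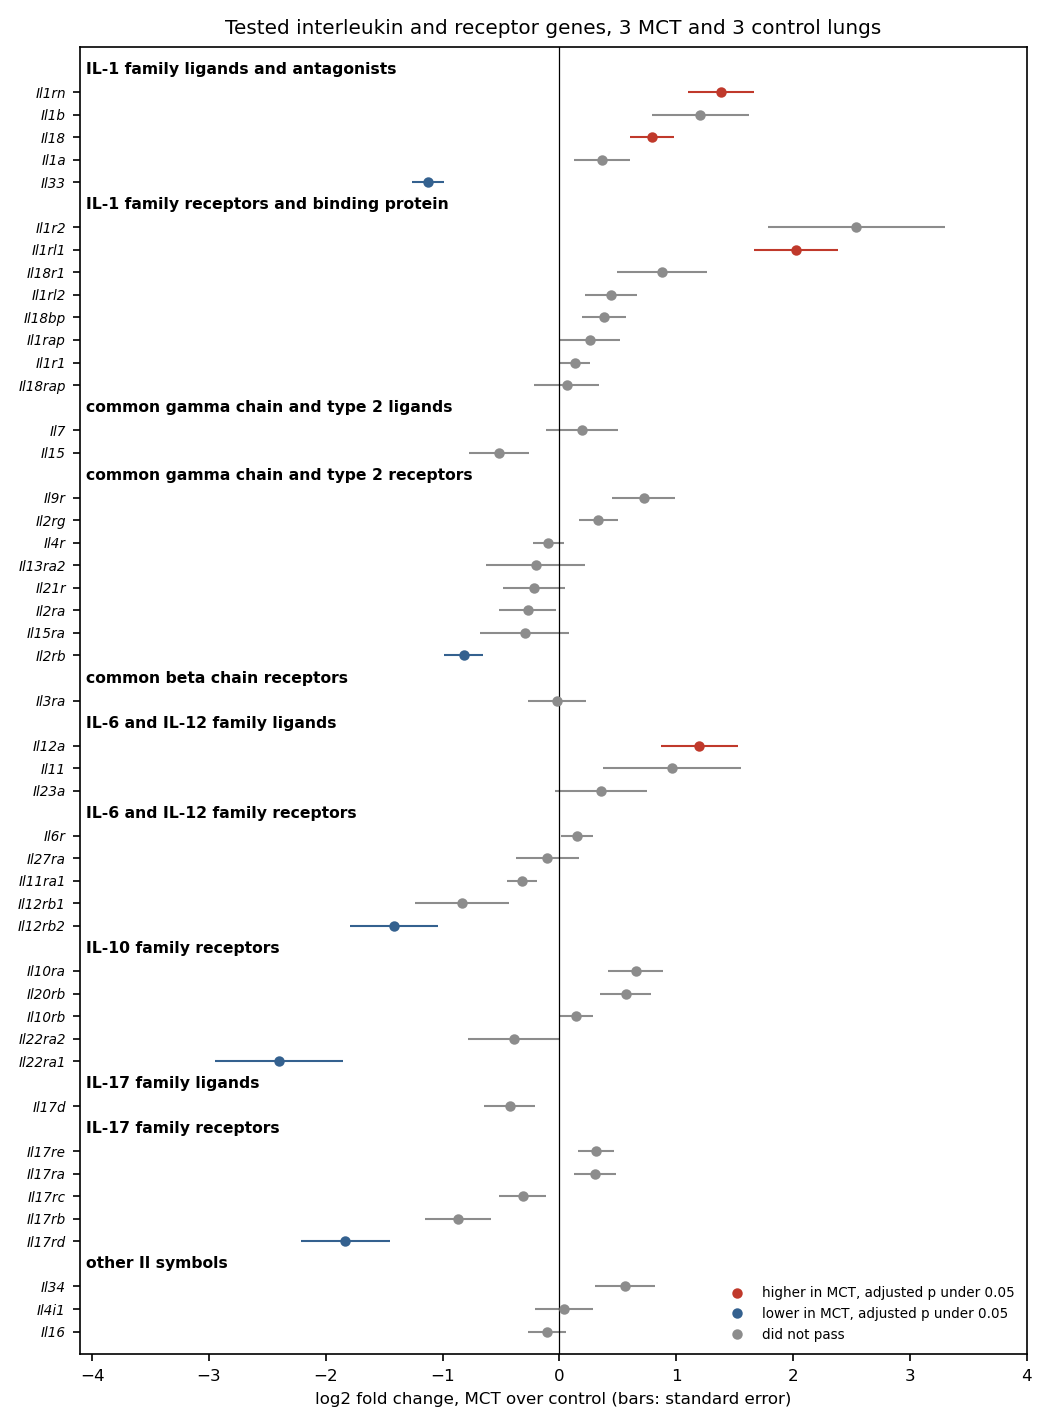
Log2 fold change, MCT over control, of the 46 tested members with the standard error as a bar, grouped by family. The 4 red points are members that rose, the 5 blue points are members that fell, and the 37 grey points did not pass.

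The 300 bases around the start of 4 of these genes, from 250 before to 50 after it, are shown because 2 of the genes are a ligand and its receptor that moved in opposite directions, 1 is the secreted antagonist of the IL-1 receptor and 1 is an IL-12 receptor chain that fell. They come from the RefSeq promoter table of build GRCr8, which held 61 of the 78 members and 8 of the 9 that passed. The counts were made on build Rnor_6.0, and no position is carried between the builds. Il33 and Il12rb2 have 2 listed starts each, and the one listed first is shown. Capitals mark matches, on either strand, to a GATA motif (AGATAA or TGATAA), an AP-1 motif (TGANTCA), a STAT motif (TTCNNNGAA) or a kappaB motif (GGGANTTCC, or GGG, any 2 bases and TTTCC). The windows are Il33 at chr1:237115323-237115622 on the plus strand, Il1rl1 at chr9:50203388-50203687 on the plus strand, Il1rn at chr3:27520072-27520371 on the plus strand and Il12rb2 at chr4:97844888-97845187 on the minus strand.
Il33: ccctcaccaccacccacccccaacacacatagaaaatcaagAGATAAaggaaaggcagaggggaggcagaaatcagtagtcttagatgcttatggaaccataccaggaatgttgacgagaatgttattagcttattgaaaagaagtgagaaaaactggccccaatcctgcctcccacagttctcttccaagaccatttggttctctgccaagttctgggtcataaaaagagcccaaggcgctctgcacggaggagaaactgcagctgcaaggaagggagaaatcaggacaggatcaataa
Il1rl1: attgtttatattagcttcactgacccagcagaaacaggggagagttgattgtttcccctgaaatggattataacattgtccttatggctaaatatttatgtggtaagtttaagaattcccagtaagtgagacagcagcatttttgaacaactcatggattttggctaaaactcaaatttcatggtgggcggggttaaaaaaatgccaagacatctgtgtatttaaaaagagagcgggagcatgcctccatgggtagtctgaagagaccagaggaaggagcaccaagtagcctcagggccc
Il1rn: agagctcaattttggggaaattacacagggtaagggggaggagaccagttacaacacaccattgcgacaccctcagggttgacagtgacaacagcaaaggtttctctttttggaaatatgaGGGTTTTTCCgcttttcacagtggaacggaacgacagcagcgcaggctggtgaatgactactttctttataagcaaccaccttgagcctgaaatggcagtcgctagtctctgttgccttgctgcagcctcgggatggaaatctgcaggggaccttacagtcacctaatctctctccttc
Il12rb2: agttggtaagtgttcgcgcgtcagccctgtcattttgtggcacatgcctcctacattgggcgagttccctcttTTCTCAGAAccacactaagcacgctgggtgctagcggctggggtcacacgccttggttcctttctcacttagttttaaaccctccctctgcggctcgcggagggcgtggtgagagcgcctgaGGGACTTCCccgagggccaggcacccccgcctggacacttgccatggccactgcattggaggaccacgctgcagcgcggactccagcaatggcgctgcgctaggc
The Il33 window held 1 GATA match beginning at position -209 from the start, and 18.9% of all 33469 listed promoters hold such a match. None of the 4 motifs was found in the Il1rl1 window. The Il1rn window held 1 kappaB match at position -129, a motif present in 3.07% of all promoters. The Il12rb2 window held a STAT match at position -177 and a kappaB match at position -55, and 8.87% of all promoters hold the STAT motif. Of the other members that passed, Il18 held 2 GATA matches and 1 AP-1 match (a motif present in 7.33% of promoters), and Il12a, Il22ra1 and Il17rd held none. These matches describe the letters only and say nothing of which factors bind there.

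The alarm cytokine and its receptor moved in opposite directions. Il33 had 151, 168 and 152 CPM in MCT replicates 1 to 3, against 337, 299 and 391 CPM in control replicates 1 to 3. All MCT lungs lay below all control lungs, and the 3 MCT values lay close together. The log2 fold change was -1.13 (SE 0.14, edgeR adjusted p = 0.0025), so the level was 2.18-fold higher in control lungs. Il1rl1, which encodes the IL-33 receptor ST2 in membrane-bound and soluble forms, had 36.0, 12.4 and 20.2 CPM in MCT lungs, against 5.06, 5.44 and 6.25 CPM in control lungs. All MCT lungs lay above all control lungs, and the MCT values were far more spread than the controls. It rose 4.08-fold, a log2 fold change of 2.03 (SE 0.36, edgeR adjusted p = 0.0103). The deposited gene counts do not part the membrane-bound form from the soluble decoy. The ratio of Il1rl1 to Il33 in FPKM was 0.273, 0.0863 and 0.15 in MCT lungs, against 0.0176, 0.0208 and 0.0181 in control lungs, and the groups did not overlap. Il1rap, the accessory chain that ST2 shares with the IL-1 and IL-36 receptors, had 10.6, 7.35 and 11.8 CPM in MCT lungs, against 7.92, 6.26 and 10.6 CPM in control lungs. Those groups overlapped, with a log2 fold change of 0.26 (SE 0.26, edgeR adjusted p = 0.553).

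Both calls held in all 16 alternatives, and that of Il1rl1 came closest to the threshold without control replicate 2 (edgeR adjusted p = 0.0498). In bulk lung, fewer cells of a type and less RNA per cell cannot be told apart, here and in every result below. Mast cell and basophil markers moved with Il1rl1. Of 11 tested markers 9 rose and 2 fell, and none was at 0 in all libraries. Their summed level was 2233, 802 and 1353 CPM in MCT lungs, against 509, 509 and 411 CPM in control lungs. The mast cell chymase gene Mcpt1 had 237 ± 116 CPM in MCT lungs and 7.36 ± 1.72 CPM in control lungs, the mast cell carboxypeptidase gene Cpa3 had 324 ± 223 and 7.84 ± 1.99 CPM in MCT and control lungs, and the chymase gene Cma1 had 195 ± 65.4 and 2.29 ± 1.91 CPM (SD, n = 3 each). The 2 that fell were Gata2 and Kit, the stem cell factor receptor, with 131 ± 24.8 CPM in MCT lungs and 212 ± 30.1 CPM in control lungs. Among T helper and innate lymphoid subset markers 1 of 10 rose and 1 fell: Ptgdr2, a prostaglandin D2 receptor, had 3.38 ± 0.794 CPM in MCT lungs and 1.28 ± 0.107 CPM in control lungs, and Tbx21 is given with the NK markers. Gata3, the type 2 lymphocyte factor, was at a log2 fold change of -1.09 (edgeR adjusted p = 0.0811). Markers of structural cells, given beside Il33, did not share 1 direction. In endothelium 3 of 10 fell (Calcrl, Tek and Cdh5) and 0 rose, with a summed level of 2207 to 3830 CPM in MCT lungs and 4277 to 4831 CPM in control lungs. In alveolar epithelium 3 of 10 fell (Slc34a2, Rtkn2 and Abca3) and 0 rose, with 16878 to 26705 CPM in MCT lungs and 28323 to 31136 CPM in control lungs. Of 6 mesothelium markers 4 fell and 0 rose, with 320 to 348 CPM in MCT lungs and 439 to 497 CPM in control lungs. Most of that sum was Krt19, which did not pass (312 ± 16.6 CPM in MCT lungs and 356 ± 31.0 CPM in control lungs). Upk1b had 2.55 ± 0.0943 CPM in MCT lungs and 26.2 ± 1.87 CPM in control lungs. Upk3b had 0.750 ± 0.476 and 14.8 ± 2.81 CPM in MCT and control lungs, and Lrrn4 had 1.24 ± 0.393 and 8.35 ± 1.01 CPM (SD, n = 3 each). Of 6 lymphatic endothelium markers 5 rose and 1 fell, with 817 to 905 CPM in MCT lungs and 268 to 334 CPM in control lungs. Of 9 fibroblast and smooth muscle markers 2 rose and 0 fell, with 1768 to 2235 CPM in MCT lungs and 1454 to 1542 CPM in control lungs. No marker of these lists was at 0 throughout. The fibroblast and smooth muscle count was 5 without MCT replicate 2 and 1 without any other library, and the fall of 1 lymphatic marker was lost without any library but MCT replicate 2. Endothelial genes that fell numbered 5 without MCT replicate 2 and 2 without any other library, and the alveolar calls were lost without control replicate 1, 2 or 3 (0 fell) and numbered 1 without MCT replicate 1 or 2. The calls of Gata2 and Kit were both lost without control replicate 2 or MCT replicate 3, and that of Ptgdr2 without any library but MCT replicate 3. The part of these cells in the Il33 and Il1rl1 results was not tested.

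**Figure D3:**
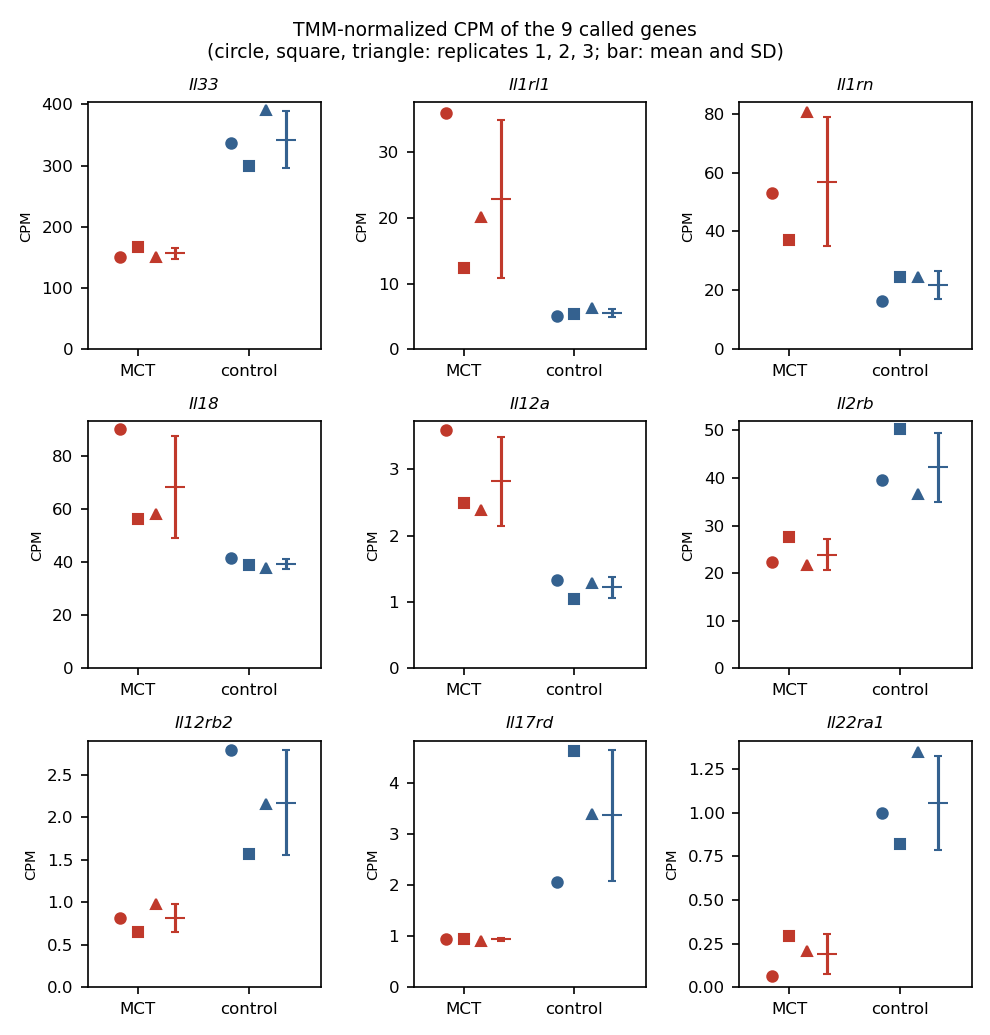
TMM-normalized CPM of the 9 members that passed, in each of 3 MCT lungs (red, left) and 3 control lungs (blue, right), with circle, square and triangle for replicates 1, 2 and 3 and a bar for the mean and SD. In none of the 9 do the groups overlap; the MCT spread is wide for Il1rl1 and Il1rn, and Il22ra1, Il17rd, Il12rb2 and Il12a lie below 5 CPM.

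The IL-1 antagonist rose, and the agonists did not pass. Il1rn, which encodes the secreted antagonist that occupies the IL-1 receptor without signalling, had 53.0, 37.1 and 80.6 CPM in MCT lungs, against 16.5, 24.5 and 24.5 CPM in control lungs. MCT replicate 3 was highest, and no MCT value fell within the control range. The log2 fold change was 1.38 (SE 0.28, edgeR adjusted p = 0.0172), and the call was lost without control replicate 2 (adjusted p = 0.0561) or control replicate 3 (0.0539). Il1b, the secreted agonist that needs caspase cleavage, had 72.0, 20.8 and 30.1 CPM in MCT lungs, against 18.1, 21.7 and 13.5 CPM in control lungs. MCT replicate 1 stood far above the rest, and MCT replicate 2 lay within the control range. Its log2 fold change of 1.21 (SE 0.42) did not pass (edgeR adjusted p = 0.095). It was 0.52 without MCT replicate 1, and it passed with DESeq2 (adjusted p = 0.0149) and without MCT replicate 2 (edgeR adjusted p = 0.0253). Il1a, the agonist active without cleavage, did not pass, at a log2 fold change of 0.37. The ratio of Il1rn to the sum of Il1a and Il1b in FPKM was 0.440, 0.900 and 1.49 in MCT lungs, against 0.436, 0.619 and 0.868 in control lungs. The groups overlapped in this ratio, and MCT replicate 1 lay at the level of the lowest control.

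Of the IL-1 receptors, the signalling chain did not pass and the decoy turned on 1 library. Il1r1, the signalling receptor and the most abundant of its group, had 56.2, 45.7 and 52.1 CPM in MCT lungs, against 49.8, 42.9 and 47.7 CPM in control lungs. The groups overlapped, with a log2 fold change of 0.13 (SE 0.13, edgeR adjusted p = 0.521). Il1r2, the decoy that binds IL-1 without signalling, had 25.6, 5.87 and 3.5 CPM in MCT lungs, against 3.13, 2.01 and 0.917 CPM in control lungs. The groups did not overlap, but MCT replicate 1 was several times any other library. Its log2 fold change of 2.54 (SE 0.76) did not pass (edgeR adjusted p = 0.0608) and was 1.23 without MCT replicate 1 (0.189). It passed with DESeq2 (adjusted p = 0.0434), with no filter on low counts (edgeR adjusted p = 0.0473), and without MCT replicate 2 (0.0439) or MCT replicate 3 (0.0395). Markers of macrophages and neutrophils are given beside these genes. Of 11 tested macrophage markers 9 rose and 0 fell, with a summed level of 1112 to 1661 CPM in MCT lungs and 530 to 640 CPM in control lungs, and the count was 6 without control replicate 2 or 3 and 8 to 10 without any other library. C1qa, a complement gene of macrophages, had 206 ± 64.9 CPM in MCT lungs and 40.4 ± 5.98 CPM in control lungs (SD, n = 3 each), and Marco, the receptor of resident alveolar macrophages, was at 0 in 4 of the 6 libraries and below 1 CPM in the others. Of 8 tested neutrophil markers 0 passed with edgeR, DESeq2 or limma-voom, 4 were higher at an unadjusted p under 0.05, and Ltf was at 0 throughout. Without MCT replicate 1 the number that passed was 0, without MCT replicate 2 it was 2, and without MCT replicate 3 it was 1. S100a9, the most abundant of them, had 456, 36.5 and 22.4 CPM in MCT lungs, against 18.8, 27.6 and 16.01 CPM in control lungs. The part of these cells in the IL-1 results was not tested.

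Receptor genes of the IL-1 family are neighbours on the chromosome, and their log2 fold changes, all positive, ran from 0.06 to 2.54. In the RefSeq gene table of build GRCr8 the order was Il1r2, Il1r1, Il1rl2, Il1rl1, Il18r1 and Il18rap, with 1 other protein-coding gene (H3f3al3) between Il1r2 and Il1r1. Only Il1rl1 of the 6 passed by edgeR. Its neighbours were Il1rl2, the IL-36 receptor, with a log2 fold change of 0.44 (SE 0.22, edgeR adjusted p = 0.224), and Il18r1, the ligand-binding IL-18 receptor chain, with 0.88 (SE 0.39, 0.167). Il1rl2 was higher in each MCT lung than in any control lung. Il18r1 had 27.3, 7.82 and 18.8 CPM in MCT lungs, against 8.52, 9.61 and 11.1 CPM in control lungs. MCT replicates 1 and 3 lay above the controls and MCT replicate 2 below them, and without MCT replicate 2 the gene passed (edgeR adjusted p = 0.0103). Without MCT replicate 1 its log2 fold change was 0.45 (edgeR adjusted p = 0.491). Il18rap, the accessory chain of that receptor, had 20.2, 17.4 and 9.81 CPM in MCT lungs, against 18.3, 15.4 and 11.8 CPM in control lungs, and the groups overlapped throughout (log2 fold change 0.06).

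**Figure D4:**
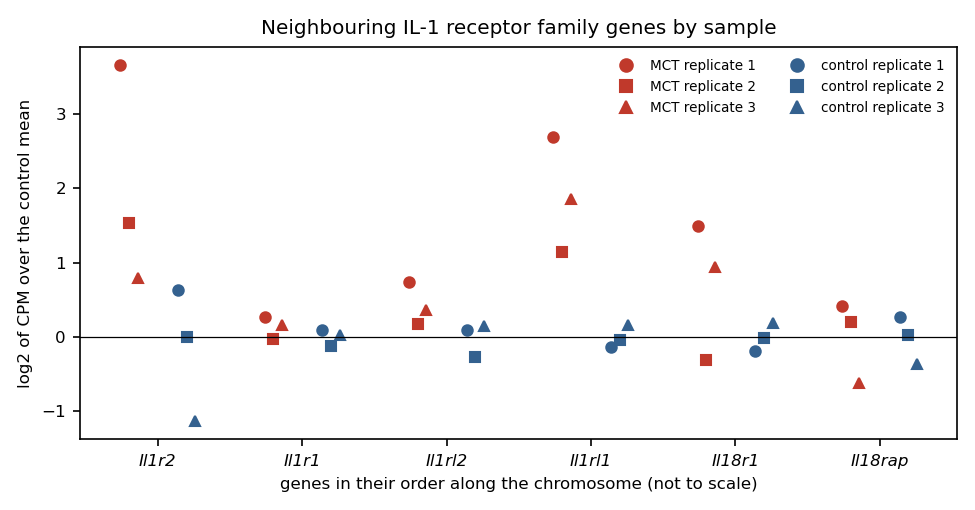
Log2 of CPM over the control mean for 6 neighbouring IL-1 receptor family genes in their chromosomal order, MCT in red left of control in blue, with circle, square and triangle for replicates 1, 2 and 3. Il1rl1 lies above all controls in each MCT lung, Il1r2 is spread over several log2 units, and Il1r1 stays near its control mean.

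Il18, an IL-1 family cytokine that drives interferon-gamma production and is processed by caspase-1, rose. It had 90.2, 56.3 and 57.9 CPM in MCT lungs, against 41.4, 38.9 and 37.9 CPM in control lungs. The control values lay close together, below all MCT values. Its log2 fold change was 0.79 (SE 0.19, edgeR adjusted p = 0.0284), and the call was lost on leaving out control replicate 1 (0.0581), 2 (0.0911) or 3 (0.102). Il18bp, the secreted protein that neutralizes IL-18, had 12.2, 10.1 and 10.1 CPM in MCT lungs, against 7.25, 8.42 and 9.22 CPM in control lungs. These groups did not overlap, yet the log2 fold change of 0.38 (SE 0.19) did not pass (edgeR adjusted p = 0.213). The ratio of Il18bp to Il18 in FPKM was 0.176 ± 0.0262 in MCT lungs and 0.228 ± 0.0371 in control lungs (SD, n = 3 each), and the groups overlapped. Of 8 tested genes in a list of inflammasome and cytokine processing genes, 2 rose and 0 fell. The inflammasome sensor gene Nlrp3 rose 2.60-fold, to 25.6 ± 5.83 CPM in MCT lungs, against 9.83 ± 1.33 CPM in control lungs (SD, n = 3 each, edgeR adjusted p = 0.00507). Card9, a signalling adaptor gene that the list also holds, rose 1.85-fold, and the inflammasome adaptor gene Pycard did not pass (edgeR adjusted p = 0.0809). On leaving out any 1 library 1 of the 8 passed. Casp1, which encodes the enzyme that cleaves IL-1 beta and IL-18, had 51.1 ± 8.85 CPM in MCT lungs and 70.4 ± 11.9 CPM in control lungs and did not pass (edgeR adjusted p = 0.113).

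Within the common gamma chain family only Il2rb passed. Il2rb encodes the beta chain shared by the IL-2 and IL-15 receptors and is known for high levels on NK and memory T cells. It had 22.4, 27.7 and 21.6 CPM in MCT lungs, against 39.5, 50.3 and 36.7 CPM in control lungs. All MCT lungs lay below all control lungs, with a log2 fold change of -0.82 (SE 0.17, edgeR adjusted p = 0.0171). The call was lost without control replicate 2 (0.0607), MCT replicate 1 (0.0521) or MCT replicate 3 (0.0645). Its signalling partner Il2rg, the gamma chain itself, had 64.1, 85.8 and 55.7 CPM in MCT lungs, against 53.3, 60.0 and 49.98 CPM in control lungs. Those groups overlapped, with a log2 fold change of 0.33 (SE 0.17, edgeR adjusted p = 0.225). The Il2rb to Il2rg ratio in FPKM was 0.203 ± 0.0183 in MCT lungs and 0.442 ± 0.0322 in control lungs (SD, n = 3 each), without overlap.

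The other chains around Il2rb did not pass. Il15, the ligand presented in trans to NK cells, had 3.73, 4.74 and 3.01 CPM in MCT lungs, against 5.26, 5.73 and 5.50 CPM in control lungs. The groups did not overlap, and the log2 fold change was -0.52 (SE 0.25, edgeR adjusted p = 0.21). Il15ra, the chain that presents it, had 1.49, 2.85 and 2.17 CPM in MCT lungs, against 3.53, 1.71 and 2.75 CPM in control lungs, with overlap. Il2ra, the high-affinity IL-2 receptor chain, had 4.68, 3.5 and 4.34 CPM in MCT lungs, against 4.79, 5.59 and 4.74 CPM in control lungs. All MCT values lay below the controls by a small margin, with a log2 fold change of -0.27 (SE 0.24). The IL-4 receptor chain Il4r, the most abundant receptor of all, had 275, 232 and 222 CPM in MCT lungs, against 266, 276 and 237 CPM in control lungs. It overlapped between groups, with a log2 fold change of -0.10 (SE 0.13, edgeR adjusted p = 0.677). The rest of the tested receptors here, Il9r, Il13ra2 and Il21r, had log2 fold changes of 0.72, -0.20 and -0.22 and did not pass, nor did the lymphocyte survival factor Il7, with 0.19. Il3ra, the IL-3 receptor alpha chain, had 31.7, 48.5 and 31.0 CPM in MCT lungs, against 31.3, 51.0 and 31.0 CPM in control lungs, and the groups overlapped fully. Csf2rb, the beta chain with which it pairs, rose 5.09-fold, to 43.4 ± 26.4 CPM in MCT lungs, against 8.52 ± 1.68 CPM in control lungs (SD, n = 3 each, edgeR adjusted p = 0.01).

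The type 2 ligands were at or near the lower limit of counting. Il4 had 1 count in MCT replicate 1 and 1 in control replicate 1, Il13 had 1 count in MCT replicate 1, Il5 had 1 count in MCT replicate 3, and Il3 and Il9 had 0 counts in all 6 libraries. A count of 0 allows up to 3 counts, or 0.162 to 0.223 CPM per library, for counting error only, so differences in these ligands were not detectable at this depth. Il25, an epithelial inducer of type 2 responses, had 2, 5 and 1 counts in MCT lungs, against 7, 8 and 11 counts in control lungs, and was below the filter. Eosinophil markers were also near 0: Prg3 and Ear1 had no count, and the list summed to 1.33 to 1.49 CPM in MCT lungs and 1.24 to 1.94 CPM in control lungs. Genes known to respond to IL-4 and IL-13 were measurable, and of 11 tested 6 rose and 0 fell. Over all genes 8.01% rose and 5.11% fell. At an unadjusted p under 0.05, 8 of the list were higher and 1 was lower. Whether IL-4 or IL-13 acted on these genes was not tested. The median log2 fold change of the list was 1.59, against -0.01 over all genes. The chemokine gene Ccl24 had 17.7 ± 2.11 CPM in MCT lungs and 3.56 ± 0.102 CPM in control lungs, the chitinase gene Chia had 909 ± 510 and 189 ± 41.3 CPM in MCT and control lungs, and the macrophage mannose receptor gene Mrc1, which is also in the macrophage list, had 349 ± 46.4 and 158 ± 35.0 CPM (SD, n = 3 each). The count of 6 was 2 without control replicate 2, 3 without control replicate 3 and 4 to 7 without any other library. Macrophage markers rose in the same lungs, and their part in this list was not tested.

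In the IL-12 family, a ligand subunit rose and a receptor chain fell, both from few reads. Il12a encodes the p35 subunit, shared by IL-12 and IL-35. It had 53, 42 and 34 counts in MCT lungs, or 3.59, 2.49 and 2.38 CPM, against 20, 14 and 24 counts in control lungs, or 1.33, 1.04 and 1.29 CPM. The groups did not overlap, and the log2 fold change was 1.20 (SE 0.33, edgeR adjusted p = 0.0471). The call was lost in 9 of 16 alternatives, among them each library left out in turn (edgeR adjusted p up to 0.163). Its partner Il12b had 2 to 4 counts in MCT lungs and 4 to 5 counts in control lungs, below the filter. Il12rb2, the signalling chain of the IL-12 receptor, known from type 1 helper and NK cells, had 12, 11 and 14 counts in MCT lungs, against 42, 21 and 40 counts in control lungs. This was 0.814, 0.652 and 0.981 CPM in MCT lungs and 2.79, 1.56 and 2.16 CPM in control lungs, without overlap. The filter scales its minimum count to library depth, and on that scale 2 MCT lungs and all 3 control lungs passed it. The log2 fold change was -1.41 (SE 0.38, edgeR adjusted p = 0.0424), and the call was lost in 11 of 16 alternatives, again with each library left out in turn (up to 0.127). Il12rb1, the other chain, had 0.882, 1.54 and 0.771 CPM in MCT lungs, against 2.53, 1.56 and 1.67 CPM in control lungs. It lay lower in each MCT lung but did not pass (log2 fold change -0.84, SE 0.40, edgeR adjusted p = 0.203).

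NK and cytotoxic markers moved with Il2rb and Il12rb2. Of 8 tested, 7 fell and 0 rose, with a summed level of 49.4 to 83.8 CPM in MCT lungs and 140 to 216 CPM in control lungs, and Klrb1 was at 0 in all libraries. The perforin gene Prf1 had 15.7 ± 6.65 CPM in MCT lungs and 45.9 ± 5.63 CPM in control lungs, Klrd1, which encodes the NK receptor chain CD94, had 9.49 ± 1.28 and 27.7 ± 9.64 CPM in MCT and control lungs, and Tbx21, the T-bet gene, had 8.61 ± 2.06 and 25.02 ± 8.13 CPM (SD, n = 3 each). Of 11 tested T cell markers 2 fell, Cd8a and Bcl11b, and 0 rose, with 88.3 to 123 CPM summed in MCT lungs and 114 to 181 CPM in control lungs. Without control replicate 3 the number of NK markers that fell was 4, and without any other library 5 to 7. T cell markers that fell numbered 6 without MCT replicate 2, 3 without control replicate 1 and at most 1 without any other library. The part of these cells in the receptor results was not tested.

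Il6, the main inducer of the acute phase response, was below the filter and stood out by 1 library. It had 109, 8 and 27 counts in MCT lungs, against 1, 2 and 7 counts in control lungs. Every MCT lung lay above every control lung, by 1 count at the closest pair, and MCT replicate 1 held most of the reads. With no filter its log2 fold change was 3.91 (SE 0.98, edgeR adjusted p = 0.0323), and on leaving out MCT replicate 1 it was 2.46 (adjusted p = 0.128). That call was also lost without control replicate 1 (0.0838), 2 (0.11) or 3 (0.063). Il6r, the ligand-binding receptor chain, did not pass, at a log2 fold change of 0.15. Il11, an IL-6 family ligand, had a log2 fold change of 0.97 (SE 0.59) and did not pass, and its receptor Il11ra1 had 51.3, 66.9 and 63.8 CPM in MCT lungs, against 73.7, 75.7 and 77.8 CPM in control lungs. Il11ra1 was lower in each MCT lung, with a log2 fold change of -0.32 (SE 0.13) that did not pass (edgeR adjusted p = 0.131). Il23a, the p19 subunit of IL-23, had 6.51, 2.49 and 3.64 CPM in MCT lungs, against 2.66, 4.32 and 2.91 CPM in control lungs, and overlapped. Its log2 fold change was 0.35, and -0.10 without MCT replicate 1, and neither passed. Il27ra had a log2 fold change of -0.10. Of 8 tested genes of the IL-6 acute phase response 3 rose and 0 fell. Lcn2, an iron-binding protein that is also in the IL-17 target list, had 1566 ± 905 CPM in MCT lungs and 94.0 ± 48.2 CPM in control lungs, Timp1, an inhibitor of matrix proteases, had 111 ± 56.9 and 28.6 ± 2.79 CPM in MCT and control lungs, and the haptoglobin gene Hp had 60.5 ± 21.6 and 19.2 ± 4.37 CPM (SD, n = 3 each). The count was 2 without control replicate 2.

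**Figure D5:**
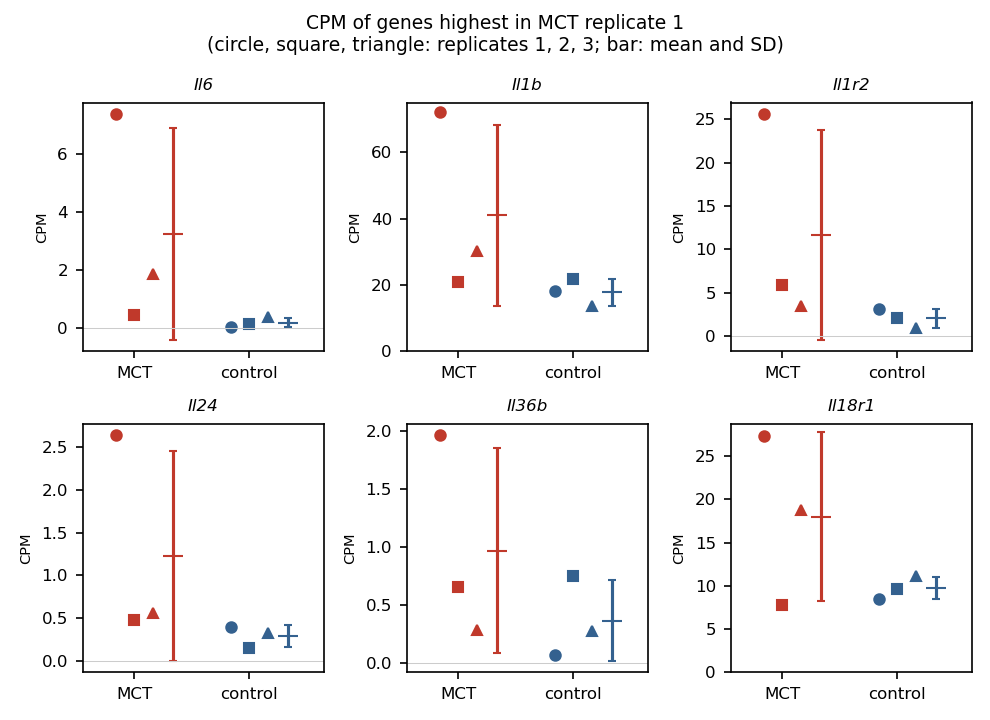
CPM of 6 members that were highest in MCT replicate 1, chosen after their values were seen: MCT lungs in red at the left and control lungs in blue at the right, with circle, square and triangle for replicates 1, 2 and 3 and a bar for the mean and SD. MCT replicate 1 lies above the other 5 libraries in each panel, and none of the 6 passed the main test (Il6, Il24 and Il36b were below its filter).

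Other ligands below the filter were also highest in MCT replicate 1. Il24, an IL-10 family ligand of epithelium, had 39, 8 and 8 counts in MCT lungs, against 6, 2 and 6 counts in control lungs. Il36b, an epithelial IL-1 family agonist, had 29, 11 and 4 counts in MCT lungs, against 1, 10 and 5 counts in control lungs. Il17b had 17, 5 and 0 counts in MCT lungs, against 4, 3 and 6 counts in control lungs, and Il17c had 5 counts in that library and 0 in all others. Il36b, Il17b and Il17c overlapped between the groups, and Il24 did not. With no filter none of Il24, Il36b, Il17b and Il17c passed (edgeR adjusted p from 0.137 to 0.658). Without MCT replicate 1 as well, the log2 fold change was 0.79 for Il24, against 2.02 with it, 0.42 for Il36b, against 1.43, and -0.78 for Il17b, against 0.79, and Il17c had no count left. The same library had the highest neutrophil marker sum, 603 CPM, and the part of that in these counts was not tested.

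In the IL-10 family no ligand reached the filter, and 1 of 5 tested receptor genes passed. Il10 itself, the main anti-inflammatory ligand, had 0, 0 and 1 counts in MCT lungs, against 0, 1 and 2 counts in control lungs. Il22ra1, the IL-22 receptor chain found on epithelium, had 1, 5 and 3 counts in MCT lungs, against 15, 11 and 25 counts in control lungs. It was tested only because the 3 control lungs passed the filter, while 0 MCT lungs did and 2 of them held no more than 3 counts. Every MCT lung lay below every control lung, at 0.0678, 0.296 and 0.210 CPM in MCT lungs against 0.998, 0.819 and 1.35 CPM in control lungs. The log2 fold change was -2.40 (SE 0.55, edgeR adjusted p = 0.0248), and the call was lost in 8 of 15 alternatives, among them the omission of any 1 library other than MCT replicate 2 (up to 0.11). Its partner Il10rb, shared across the family, had 59.2, 58.8 and 47.4 CPM in MCT lungs, against 56.7, 45.1 and 47.8 CPM in control lungs, with overlap and a log2 fold change of 0.14 (SE 0.14, edgeR adjusted p = 0.537). Il22ra2, the soluble decoy of IL-22, did not pass, at a log2 fold change of -0.39. Il10ra, the ligand-binding IL-10 receptor chain, and Il20rb had log2 fold changes of 0.65 and 0.57, were higher in each MCT lung and did not pass (edgeR adjusted p = 0.109 and 0.12). Airway epithelium markers did not pass in any of 6 tested (1 lower at an unadjusted p under 0.05, and 0 with DESeq2 or limma-voom), and 1 was lower without MCT replicate 3. The alveolar epithelium values given with Il33 also stand beside Il22ra1, and their part was not tested.

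Of the IL-17 receptors Il17rd fell. Il17rd, also known as Sef, is a receptor-like protein that restrains fibroblast growth factor signalling and takes part in IL-17 signalling. It had 0.949, 0.948 and 0.911 CPM in MCT lungs, against 2.06, 4.62 and 3.4 CPM in control lungs. The MCT values were nearly equal and lay below all controls. The log2 fold change was -1.83 (SE 0.38, edgeR adjusted p = 0.0186), and the call was lost without control replicate 2 (0.0746), control replicate 3 (0.071), MCT replicate 1 (0.0548) or MCT replicate 3 (0.0607). Il17ra, the shared signalling chain and the most abundant of the group, had 191, 268 and 245 CPM in MCT lungs, against 178, 232 and 159 CPM in control lungs, with overlap (log2 fold change 0.31, SE 0.18, edgeR adjusted p = 0.297). Il17rb, the IL-25 receptor, was lower in each MCT lung, with a log2 fold change of -0.87 (SE 0.28) that did not pass (edgeR adjusted p = 0.0813). Il17rc and Il17re had log2 fold changes of -0.31 and 0.31. Among ligands Il17a had 0 counts in all libraries, and only Il17d was tested. Il17d had 4.88, 7.23 and 6.16 CPM in MCT lungs, against 8.58, 8.56 and 7.44 CPM in control lungs, lower in each MCT lung without passing (log2 fold change -0.42, SE 0.22, edgeR adjusted p = 0.234). Of 9 tested IL-17 adaptor and target genes 1 rose, Lcn2, and 0 fell, and without MCT replicate 2 the count was 4. At an unadjusted p under 0.05, 5 were higher and 1 was lower. Their median log2 fold change was 2.30, against -0.01 over all genes. That median is the value of the neutrophil marker S100a8, which did not pass (edgeR adjusted p = 0.1204). The list summed to 3279, 854 and 1581 CPM in MCT replicates 1 to 3, against 174 to 297 CPM in control lungs. A median without MCT replicate 1 is not given here. The neutrophil marker S100a9 is also in this list, and the part of neutrophils in it was not tested.

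Outside these families, Il34, an alternative ligand of the macrophage receptor Csf1r, had 27.9, 37.5 and 36.3 CPM in MCT lungs, against 32.1, 21.7 and 15.3 CPM in control lungs. MCT replicate 1 lay within the control range, and the log2 fold change of 0.56 (SE 0.26) did not pass (edgeR adjusted p = 0.182), though it did without control replicate 1 (0.0455). Il16 and the amino acid oxidase gene Il4i1 had log2 fold changes of -0.10 and 0.04. The Il13ra1 entry held 1.58 to 4.93 estimated counts in MCT lungs and 1.58 to 5.44 in control lungs, while an entry named LOC100360218, annotated as interleukin 13 receptor alpha 1-like, held 1896 to 2271 counts in MCT lungs and 1469 to 2212 in control lungs. Reads of these near-identical entries may be split between them, so the Il13ra1 level is uncertain. The near copy had a log2 fold change of 0.15 (edgeR adjusted p = 0.519).

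Shared signalling genes passed in few cases. Of 14 tested JAK and STAT genes 1 rose, the phosphatase gene Ptpn6, with 137 ± 9.09 CPM in MCT lungs and 91.8 ± 5.36 CPM in control lungs (SD, n = 3 each), and 0 fell. That count was 2 without MCT replicate 2 and 0 without control replicate 3. Of 8 SOCS feedback inhibitor genes 0 passed with edgeR, DESeq2 or limma-voom, and 1 was lower at an unadjusted p under 0.05. Of 21 IL-1 and Toll-like receptor adaptor genes 0 passed with any of the 3 tools, and 2 were higher and 1 lower at an unadjusted p under 0.05. Receptor partners outside the Il symbols held more: of 12 tested 5 rose and 2 fell. The number that rose was 2 without control replicate 3, 3 without control replicate 1 or MCT replicate 3 and 4 to 5 otherwise, and the number that fell was 1 without any library but control replicate 1. Besides Csf2rb, the oncostatin M receptor gene Osmr rose 3.06-fold, to 17.6 ± 6.5 CPM in MCT lungs, against 5.73 ± 0.227 CPM in control lungs. The leukaemia inhibitory factor receptor gene Lifr had 12.4 ± 2.30 CPM in MCT lungs and 54.6 ± 12.03 CPM in control lungs (SD, n = 3 each), so it was 4.39-fold higher in control lungs (edgeR adjusted p = 0.000992). Both are chains that pair with the product of Il6st. Crlf2, the receptor for thymic stromal lymphopoietin that pairs with the IL-7 receptor, rose, as did Csf2ra, and the cytokine gene Clcf1 fell.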

How the data were processed

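PolyA RNA of 3 MCT and 3 control rat lungs was compared, grouped and numbered by the samples' titles. Per the file headers, the authors deposited for each gene and sample an estimated count and an FPKM value. Bowtie2, TopHat2 2.0.3.12 and build Rnor_6.0 stand in the submitters' processing notes. Not given in the sources used here were the counting tool, the annotation release, strand and the treatment of reads with several matches. Reads of near-identical or overlapping genes may therefore be split or shared. Of the estimated counts above 0, 90.7% to 91.5% per library were whole (tolerance 1e-06), and all were rounded for testing, since the tests had been planned for counts.

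All 6 libraries entered edgeR's quasi-likelihood test (version 4.0.16 under R 4.3.3) with TMM scaling, no covariates and filterByExpr (minimum count 10, minimum total 15), over 15250 genes, with Benjamini-Hochberg adjustment. Levels in CPM are TMM-normalized, errors are SDs over 3 libraries, and FPKM values were used to compare genes. Intervals from counting cover counting error only. Alternatives were DESeq2 1.42.0, limma-voom (limma 3.58.1), median-of-ratios and upper-quartile scaling, no filter, a filter of at least 1 CPM in 3 libraries, limma on log2(FPKM + 0.1) and log2(FPKM + 1), a replicate block, symbols summed, and each library left out. On simulated counts with 200 changed genes the test was checked.

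The members, gene lists and tests were chosen with earlier results of these data known. Statistics with every library's value are given for members that passed, for the member with the smallest p and the highest FPKM in each family, and for partners of members that passed. From each list the 3 genes with the smallest p and the most abundant gene were eligible for naming, and other genes were named after their values were seen. Counts over a list can include genes not reported here by name.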

Additional observations from a re-analysis of the deposited data

How the results depend on the processing

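Among the interleukin and receptor genes 4 rose and 5 fell. Over 143 repeats of the 9 calls, 103 kept the call, 40 lost it and 0 changed direction, and 2 members, Il33 and Il1rl1, passed in every alternative run. The count of members that fell was 3 on log2(FPKM + 0.1), 3 on log2(FPKM + 1) and 3 with the replicate block. Leaving out each library gave 1 to 7 members that rose and 1 to 4 that fell. Over all genes 1221 rose and 779 fell, against 1182 that fell with DESeq2, and leaving out each library gave 481 to 1394 and 212 to 978. Of the pathway genes 17 rose and 2 fell. The fall count was 1 with limma-voom, the stricter filter, log2(FPKM + 0.1), log2(FPKM + 1) and the replicate block, and leaving out each library gave 9 to 22 and 1 to 2. Of the cell type markers 31 rose and 26 fell, against 25 to 36 and 11 to 26 on leaving out each library. Leaving out a library also lowers the number of samples, and the cause of these shifts was not tested. Same-numbered MCT and control libraries did not deviate together (correlations -0.0649, -0.077 and -0.0301), so they share only a number; the replicate block called 917 and 546 of all genes. Under it Il1r2 passed (adjusted p = 0.0166), and Il12a, Il12rb2 and Il22ra1 did not (0.0931, 0.0788 and 0.0589). Omitting a library without a filter, for Il6, Il24, Il36b, Il17b and Il17c, was added after seeing the data. Il22ra1 could not be tested under the stricter filter. Members below about 10 counts per library rest on a depth that cannot show differences of modest size.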
